A study of Mus musculus with 6 samples.

Results

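Growth factors and colony-stimulating factors are described here in cultured mouse macrophages, as 10 genes of 23034 in the table: Csf1, Csf1r, Csf3, Vegfa, Pdgfa, Pdgfb, Igf1, Tgfb1, Hbegf and Gdf15. They were taken by gene symbol as tissue repair growth factors and the M-CSF axis, and all 10 symbols were found. RNA sequencing compared 3 control libraries, given PBS, with 3 libraries given SA@BATMAN5 for 24 hours. All cells were wild-type bone marrow-derived macrophages grown with M-CSF at 10 ng/ml and activated with interleukin-4 (IL-4) at 20 ng/ml for 24 hours before treatment. M-CSF, the product of Csf1, was thus added to the cultures of both groups, and the labels do not say whether it or IL-4 was present during the treatment. The series title describes clusters of the peptide tuftsin that are directed at Fc gamma receptors. Nothing in the labels states that replicates are different animals or cultures. The p-values therefore reflect variation among these 6 libraries alone, part or all of which may be technical.

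With SA@BATMAN5, transcripts of 7 of the 10 genes were lower and those of 3 were higher. The platelet-derived growth factor gene Pdgfa fell the most, to 5.98 ± 0.450 FPKM from 25.3 ± 0.700 FPKM (SD, n = 3). Vegfa, Igf1, Hbegf and Gdf15 each fell by more than 2-fold, while Tgfb1 and Csf1 fell by less. The M-CSF receptor gene Csf1r rose from 210.4 ± 4.94 to 387 ± 16.4 FPKM, Pdgfb rose slightly, and Csf3 appeared at a trace level.

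Growth factors are secreted or membrane-bound proteins that bind receptors on nearby cells, most of them receptor tyrosine kinases. Macrophages depend on M-CSF, acting through Csf1r, for survival and growth, and in wounds they supply VEGF-A to endothelium, PDGF and IGF-1 to mesenchymal cells, HB-EGF to epithelium and TGF-beta to matrix-forming cells. IL-4-activated macrophages are known for IGF-1 and PDGF production, and granulocyte colony-stimulating factor, the product of Csf3, drives neutrophil formation.

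Upstream sequence in RefSeq on GRCm38.p6 was in hand for 6 of the 10 genes. All 6 were genes that fell. The 250 bases before the start are shown for the largest fall (Pdgfa), the smallest fall (Csf1), the most abundant ligand gene (Igf1) and Vegfa, in the direction of transcription. Where the table held several starts, the most upstream was used. Capitals mark the GC box GGGCGG, on either strand, except in Igf1, where they mark the AP-1 motif TGANTCA.
Pdgfa: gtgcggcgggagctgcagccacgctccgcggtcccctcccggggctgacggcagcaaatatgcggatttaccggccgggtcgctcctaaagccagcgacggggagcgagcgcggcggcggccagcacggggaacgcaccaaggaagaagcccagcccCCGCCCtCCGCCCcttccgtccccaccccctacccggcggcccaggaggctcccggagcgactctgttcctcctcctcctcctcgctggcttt
Vegfa: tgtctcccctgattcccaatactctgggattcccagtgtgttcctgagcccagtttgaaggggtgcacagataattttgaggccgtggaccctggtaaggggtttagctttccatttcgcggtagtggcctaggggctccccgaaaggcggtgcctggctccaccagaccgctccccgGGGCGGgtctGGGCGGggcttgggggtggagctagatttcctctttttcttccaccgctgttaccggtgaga
Csf1: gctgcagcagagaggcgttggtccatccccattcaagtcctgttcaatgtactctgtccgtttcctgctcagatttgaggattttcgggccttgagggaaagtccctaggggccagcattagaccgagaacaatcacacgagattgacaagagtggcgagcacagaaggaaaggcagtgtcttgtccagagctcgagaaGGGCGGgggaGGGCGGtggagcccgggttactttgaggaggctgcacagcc
Igf1: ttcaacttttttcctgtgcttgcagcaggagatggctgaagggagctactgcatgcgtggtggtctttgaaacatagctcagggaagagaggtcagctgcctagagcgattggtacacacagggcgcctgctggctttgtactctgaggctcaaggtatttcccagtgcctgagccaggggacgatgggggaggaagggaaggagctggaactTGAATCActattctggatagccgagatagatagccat
These lie at chr5:138994945-138995194, minus strand; chr17:46032378-46032627, minus strand; chr3:107760470-107760719, minus strand; and chr10:87860861-87861110, plus strand. Pdgfa, Vegfa and Csf1 each held 2 GC boxes, Tgfb1 held 5, and Igf1 and Gdf15 held 0. A GC box was present in 32.7% of 32851 upstream sequences of the same length. The AP-1 motif was found in Igf1 and in none of the other 5, against 6.75% of all. The hypoxia response core ACGTG was found in none of the 6, against 16.6% of all, which says only that these letters are not in this window. Other motifs were scanned as well. A loose kappaB motif was found in all 6, with 1 to 7 matches each, against 45.8% of all. The C/EBP motif was found in none of the 6, against 36.8% of all. The STAT6, CRE, C/EBP-ATF and TATA box motifs were in none either, against 5.85%, 1.55%, 3.45% and 12.4% of all. The G and C content was 72.4% for Pdgfa, 75.2% for Tgfb1, 59.2% for Vegfa, 56.4% for Csf1 and for Gdf15, and 52.8% for Igf1. The median of all upstream sequences was 52.4%, and the motif shares were not matched for G and C content.

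Levels are given as FPKM (fragments per kilobase of transcript, scaled to the fragments of the library), a per-length scale computed by the authors, and changes as log2 fold changes, SA@BATMAN5 over control, ± SE from counts. Tests are edgeR's quasi-likelihood test with Benjamini-Hochberg adjustment over 13474 genes. Control libraries held 38740103 to 47018154 counts and SA@BATMAN5 libraries 29739263 to 37212125, with every control library deeper than every treated one. Over all genes 3980 were called higher and 3866 lower at an adjusted p under 0.05, or 3239 and 4791 with upper-quartile scaling. Of 10 macrophage markers, Csf1r among them, 6 rose and 4 fell, with summed levels of 8824 to 8912 FPKM in control and 11302 to 11640 FPKM in treated libraries. Adgre1, which encodes F4/80, rose from 226 ± 13.6 to 718 ± 12.7 FPKM, and Cd68 fell from 1049 ± 16.7 to 840 ± 15.1 FPKM. The part of this marker change in the member values was not tested. All 5 IL-4 response genes checked were lower with SA@BATMAN5, with Arg1 going from 532 ± 8.95 to 4.81 ± 0.532 FPKM. Of 12 stromal markers 7 rose, 2 fell and 1 did not pass, with summed levels of 335 to 416 FPKM in control and 380.5 to 451 FPKM in treated libraries, and Lum at 0 counts throughout. Growth factor transcripts from such cells were not separated from those of macrophages, and in bulk RNA fewer cells of a type and less RNA per cell cannot be told apart.

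All 10 members passed the test, against 58.2% of all genes tested. The 7 that were lower compare with 28.7% of genes called lower and the 3 that were higher with 29.5% called higher. Counts of genes called in the lists below stand against the same shares. A fall of at least 2-fold was called for 5 members, against 7.35% of genes, and a rise of at least 2-fold for 1, against 9.17%. The FPKM ranges of the groups did not overlap for any member, as for 63.6% of genes tested, 37.7% being lower in every treated library and 25.9% higher. Csf3 passed the filter on low counts only through the treated libraries, so it had to differ, and the other 9 members were above the filter level in every library. The 1 rise of at least 2-fold was that of Csf3, which is included in these counts and in the median below. The median log2 fold change was -0.87 over the 10 members and 0.00 over all genes. The members were chosen with earlier results of these data known, so these shares and medians describe the 10 genes and test nothing about them as a set.

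**Figure D1:**
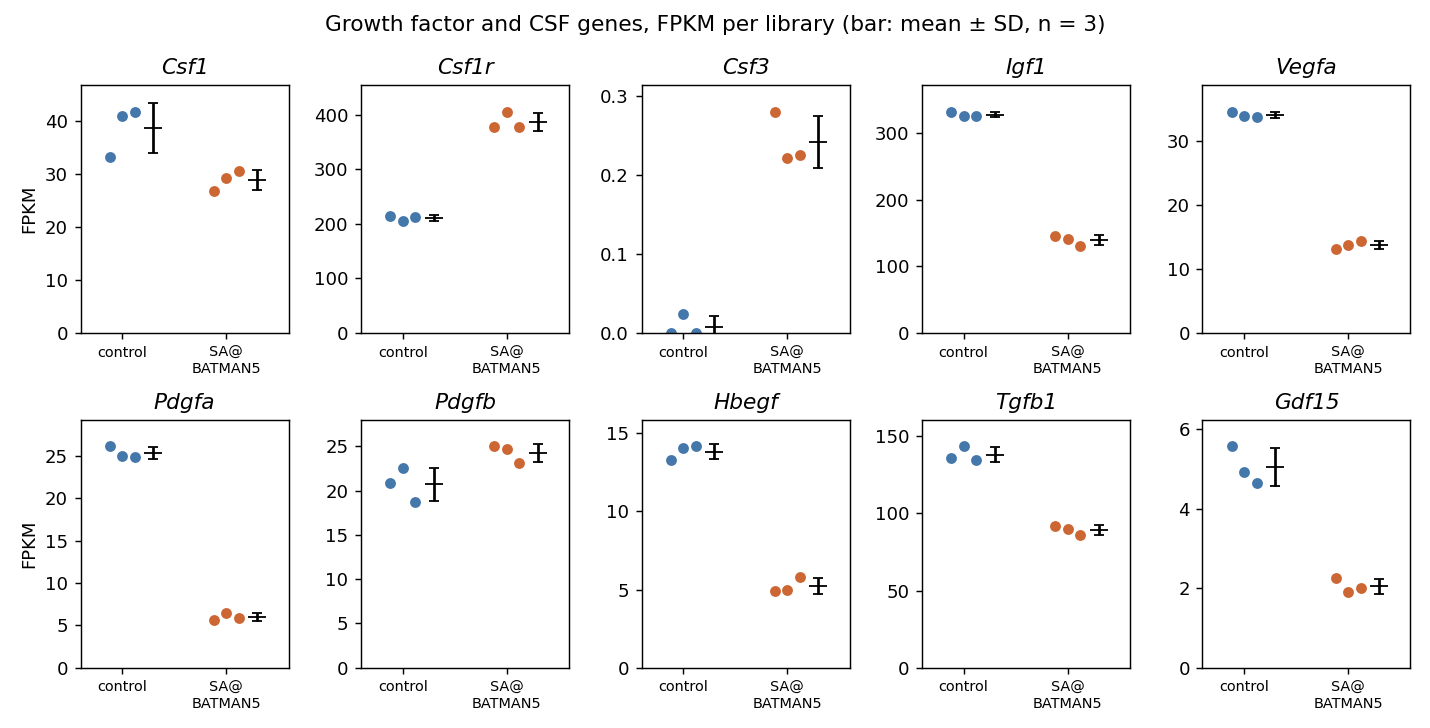
FPKM of each gene (y axis, linear from 0, a different range in each panel) in the 3 control and 3 SA@BATMAN5 libraries, with mean ± SD beside the points; the lower end of the Csf3 control bar is cut at 0. In all 10 panels the points of the groups are separate, with Csf1r, Csf3 and Pdgfb higher and the other 7 lower with SA@BATMAN5.

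The M-CSF axis split between ligand and receptor. Csf1, which encodes M-CSF, stood at 33.2, 41.1 and 41.9 FPKM in control and 26.9, 29.3 and 30.5 FPKM in treated libraries. Control replicate 1 was the lowest control and still above every treated library. The log2 fold change was -0.39 ± 0.07 (adjusted p 0.000161, edgeR), a 1.31-fold fall, and with no library left out in turn did it stop passing. Csf1r, the receptor tyrosine kinase for M-CSF and interleukin-34, stood at 214, 205 and 212 FPKM in control and 378, 405 and 376 FPKM in treated libraries. Every treated library was far above the highest control, with a log2 fold change of 0.87 ± 0.03 (adjusted p 1.54e-12). Within a library, where scaling cancels, the FPKM of Csf1 relative to Csf1r was 0.184 ± 0.0253 in control and 0.0749 ± 0.00546 with SA@BATMAN5 (SD, n = 3). The groups of ratios did not overlap, which follows from the separate FPKM ranges of Csf1 and Csf1r. Il34, the other ligand of the receptor, was at 0.266 ± 0.0912 and 0.482 ± 0.149 FPKM and did not pass (log2 fold change 0.62 ± 0.36, adjusted p 0.159).

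Genes that act below or upstream of the M-CSF receptor went in different directions. Of 20 listed, 9 fell, 8 rose and 3 missed the threshold, around a median log2 fold change of 0.00. Ptpn6, the phosphatase SHP-1, rose from 46.1 ± 2.48 to 119 ± 2.51 FPKM (log2 fold change 1.44 ± 0.04, adjusted p 4.35e-13, edgeR). Spi1, which encodes the transcription factor PU.1 that drives Csf1r in myeloid cells, rose from 129 ± 1.41 to 163 ± 3.74 FPKM. Spi1 was singled out after its values were seen.

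The other colony-stimulating factors were near or below detection in control cells. Csf3, which encodes G-CSF, had 0, 2 and 0 counts in control and 18, 12 and 15 counts in treated libraries. Summed over libraries and scaled to depth, the ratio of treated to control was 30.0, with an exact 95% interval of 7.85 to 256, which covers counting error only. Both control counts came from replicate 2. Without that library the treated level was 14.1-fold higher when 3 counts were taken for the remaining controls together. That value leaves out counting error in the treated libraries. The treated level remained a trace, at 0.242 ± 0.0331 FPKM, a rank of 12191 among the 13474 genes tested. Csf2, which encodes GM-CSF, had 0 counts in every control library and 5, 7 and 15 counts in treated libraries. It was not tested under the filter. With 3 counts taken for the 3 controls together, Csf2 was 12.0-fold higher, a value that leaves out counting error in the treated libraries. The exact 95% interval of the ratio of summed counts began at 9.12. Il3 had 0 counts in all 6 libraries, which allows up to 3 counts each.

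Receptor genes of this family were higher as well. Of the 7 other genes in the colony-stimulating factor list, 5 could be tested, of which 4 rose and 0 fell. Csf3r, the G-CSF receptor, rose from 8.96 ± 0.267 to 14.5 ± 0.280 FPKM (log2 fold change 0.78 ± 0.05, adjusted p 4.44e-09, edgeR). Csf2rb2, the mouse beta chain used by interleukin-3, rose from 74.8 ± 3.08 to 104 ± 2.74 FPKM, and Csf2ra, the GM-CSF receptor alpha chain, from 131 ± 9.90 to 155 ± 0.636 FPKM. Csf2rb, the shared beta chain, was at 159 ± 2.69 and 167 ± 4.49 FPKM (log2 fold change 0.14 ± 0.03, adjusted p 0.000931), a call lost with library totals only (adjusted p 0.0701) and with upper-quartile scaling (0.103). Csf2rb and Csf2rb2 are close paralogs, so reads may be divided between them in ways the counting tool decides. Csf3r is also a neutrophil marker. Of the 10 neutrophil markers listed 5 rose and 1 fell, with summed levels of 22.4 to 23.4 FPKM in control and 114 to 131 FPKM in treated libraries. S100a8, a calcium-binding protein gene of neutrophils and monocytes, rose from 9.84 ± 0.202 to 103 ± 8.11 FPKM. Camp, an antimicrobial peptide gene of neutrophil granules, had 0, 0 and 2 counts in control and 23, 23 and 27 counts in treated libraries. S100a9 and Ngp also rose, and Cxcr2 fell. Ly6g, Mpo and Retnlg had 0 counts in all 6 libraries, and Elane had 3, 0 and 4 counts in control and 0 in treated libraries. The part of these markers in the Csf3 and Csf3r values was not tested.

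**Figure D2:**
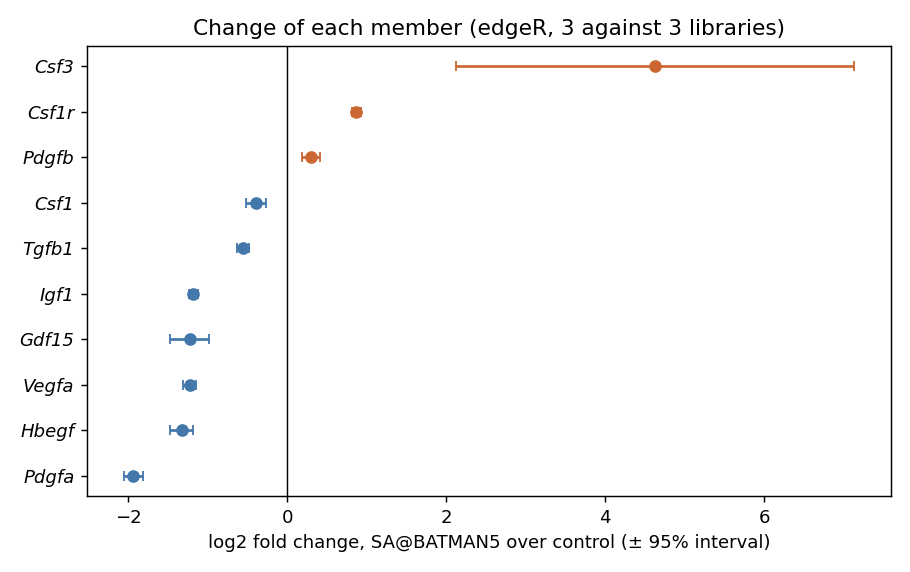
Log2 fold change of each member (x axis, SA@BATMAN5 over control) with its 95% interval, ordered by size. Pdgfa is lowest at -1.93, the other 6 genes that fell lie between -1.33 and -0.39, Pdgfb and Csf1r lie at 0.30 and 0.87, and Csf3 has the widest interval.

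Vegfa encodes VEGF-A, the main growth factor for blood vessels. Its level was 34.6, 33.9 and 33.7 FPKM in control and 13.2, 13.8 and 14.3 FPKM in treated libraries. The spread within a group was small beside the gap between groups, with a log2 fold change of -1.22 ± 0.04 (adjusted p 5.38e-12, edgeR). Only 5.57% of the genes tested fell by more. Vegfb, a relative that binds the receptor Flt1, fell from 4.69 ± 0.135 to 2.41 ± 0.407 FPKM (log2 fold change -0.86 ± 0.14). The ratio of Vegfa to Vegfb FPKM was 7.26 ± 0.314 and 5.82 ± 1.08, with treated replicate 1 the lowest at 4.57.

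The receptors and co-receptors of the VEGF family did not move together. Of 9 other genes in the list 8 were tested, of which 3 rose, 3 fell and 2 did not pass. Flt1, VEGF receptor 1, fell from 10.9 ± 0.491 to 3.05 ± 0.328 FPKM (log2 fold change -1.74 ± 0.07) and Nrp1, a co-receptor for VEGF-A that has been described as binding tuftsin, from 81.4 ± 5.48 to 47.0 ± 1.56 FPKM. Nrp2, the other neuropilin, rose from 50.8 ± 1.41 to 123 ± 3.77 FPKM (1.35 ± 0.03, adjusted p 5.72e-14). The remaining rises were of traces, Pgf at 20, 25 and 21 counts in control and 33, 39 and 52 in treated libraries, and Flt4 at 6, 9 and 0 against 22, 30 and 35. Kdr, VEGF receptor 2 of endothelium, was at 0.160 ± 0.0214 and 0.146 ± 0.0385 FPKM and did not pass. Endothelial markers summed to 10.7 to 11.9 FPKM in control and 2.76 to 2.88 FPKM in treated libraries, mostly Vwf, with Emcn at 0 counts. Their part in the VEGF family values was not tested.

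Vegfa is a classical target of hypoxia-inducible factors. Of 8 genes for these factors and their regulators, 2 rose, 3 fell and 3 did not pass. Hif1a, the oxygen-regulated subunit, rose from 25.0 ± 0.941 to 34.3 ± 1.73 FPKM (log2 fold change 0.52 ± 0.04, adjusted p 3.66e-08), and its partner Arnt fell from 14.3 ± 0.740 to 10.1 ± 0.226 FPKM (-0.41 ± 0.05). The transcript of Hif1a went opposite to that of Vegfa and the transcript of Arnt went the same way. The part of these factors in the Vegfa values was not tested.

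The PDGF genes Pdgfa and Pdgfb, which encode the chains of the PDGF dimers, separated. Pdgfa was at 26.1, 25.0 and 24.9 FPKM in control and 5.59, 6.47 and 5.86 FPKM in treated libraries. No treated library came near the controls, and the log2 fold change was -1.93 ± 0.06 (adjusted p 3.72e-12, edgeR), which 2.25% of tested genes exceeded in falling. Pdgfb was at 20.9, 22.5 and 18.8 FPKM in control and 25.0, 24.7 and 23.1 FPKM in treated libraries. The lowest treated library was just above the highest control (log2 fold change 0.30 ± 0.06, adjusted p 0.000530). Pdgfa was the more abundant of the pair in every control library and Pdgfb in every treated library. The ratio of Pdgfa to Pdgfb FPKM within a library was 1.23 ± 0.111 in control and 0.246 ± 0.0200 with SA@BATMAN5.

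Of the 4 other PDGF family genes 2 rose and 2 did not pass. Pdgfrb, the receptor for PDGF-B on mesenchymal cells, rose from 1.02, 1.3 and 1.47 FPKM in control to 4.2, 4.55 and 5.09 FPKM in treated libraries (log2 fold change 1.94 ± 0.12, adjusted p 3.85e-09). Pdgfrb is itself a stromal marker, and of the 12 listed 7 rose, Pdgfrb among them, 2 fell and 1 did not pass. Col1a1 went from 54.9 ± 5.38 to 70.1 ± 4.39 FPKM. Acta2 fell from 90.0 ± 9.20 to 72.7 ± 8.39 FPKM, with overlapping ranges (log2 fold change -0.23 ± 0.08, edgeR adjusted p 0.0210). Col1a1 and Acta2 were singled out after their values were seen. Pdgfc rose from 1.01 ± 0.175 to 1.41 ± 0.165 FPKM. Pdgfra, the receptor for both chains on fibroblasts, was at 0.408 ± 0.0739 and 0.408 ± 0.0423 FPKM (adjusted p 0.484).

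**Figure D3:**
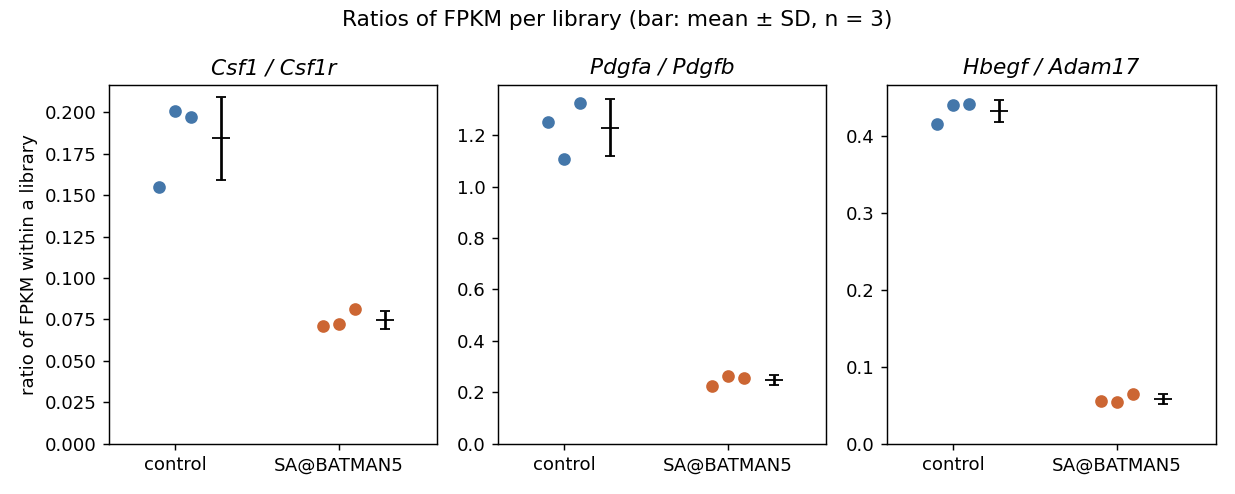
Ratio of FPKM of paired genes within each library (y axis, linear from 0) for Csf1 over Csf1r, Pdgfa over Pdgfb and Hbegf over Adam17, with mean ± SD over 3 libraries beside the points. In each pair every treated library lies below every control library, with Pdgfa over Pdgfb at 1.23 in control and 0.246 in treated libraries. This separation follows from the single genes, as each numerator was lower and each denominator higher in every treated library.

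Igf1, insulin-like growth factor 1, was the most abundant of the 10 genes in control cells. It stood at 332, 325 and 326 FPKM in control and 146, 141 and 131 FPKM in treated libraries. The fall was larger than any spread within a group (log2 fold change -1.18 ± 0.03, adjusted p 1.66e-13, edgeR). Its rank by FPKM among tested genes went from 163 to 426, so it stayed an abundant transcript. The receptor and adaptor genes Igf1r, Irs1 and Irs2 were lower as well. Igf1r, the IGF-1 receptor, fell from 1.63 ± 0.0816 to 0.953 ± 0.0704 FPKM (-0.70 ± 0.08), and Irs2, an adaptor of the insulin and IGF-1 receptors, from 2.42 ± 0.147 to 1.03 ± 0.0684 FPKM (-1.15 ± 0.09). The ratio of Igf1 to Igf1r FPKM was 202 ± 9.49 in control and 147 ± 13.1 with SA@BATMAN5. Of 14 other genes in the list 9 were tested, of which 4 fell, 2 rose and 3 did not pass. Those that rose were the binding protein genes Igfbp5 and Igfbp7, the latter from 17.2 ± 2.03 to 27.4 ± 0.346 FPKM. Igfbp4, the binding protein gene next in level, was at 4.88 ± 0.441 and 4.28 ± 0.232 FPKM (log2 fold change -0.16 ± 0.08, adjusted p 0.101). Igfbp4 passed with library totals only (adjusted p 0.0225), with the upper quartile (0.0186) and without control replicate 1 (0.0129). Igf2 had 0 counts in all libraries.

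Tgfb1, which encodes the latent cytokine TGF-beta 1, stood at 136, 143 and 135 FPKM in control and 92.1, 89.6 and 85.7 FPKM in treated libraries. All treated libraries were below all controls (log2 fold change -0.56 ± 0.04, adjusted p 1.11e-08, edgeR). Of 28 other genes in the TGF-beta list 14 rose, 12 fell and 2 did not pass. Tgfb2 and Tgfb3 were far lower than Tgfb1 in FPKM, at 1.36 ± 0.0130 and 3.67 ± 0.481 in control, and Tgfb2 rose while Tgfb3 fell. Of the receptors, Tgfbr1 rose from 28.1 ± 0.618 to 33.2 ± 0.247 FPKM (0.32 ± 0.03) and Tgfbr2 fell from 7.29 ± 0.246 to 5.76 ± 0.450 FPKM (-0.26 ± 0.05).

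TGF-beta 1 is stored as an inactive complex and released by integrins. Genes of that machinery went both ways, and those given here were singled out after their values were seen, except Itgb3. Nrros, which holds latent TGF-beta 1 on myeloid cells, fell from 63.4 ± 2.25 to 31.1 ± 0.595 FPKM, and Lrrc32, the related anchor GARP, from 10.6 ± 0.550 to 2.83 ± 0.339 FPKM. Furin, the protease that cleaves the precursor, fell from 24.4 ± 0.749 to 11.6 ± 0.0732 FPKM. Itgb3, an integrin chain that pairs with Itgav, fell from 31.1 ± 0.513 to 2.86 ± 0.328 FPKM (log2 fold change -3.37 ± 0.06, adjusted p 6.83e-15). Itgb8, the chain of another TGF-beta-activating integrin, went the other way, from 0.213 ± 0.0180 to 1.67 ± 0.146 FPKM (3.03 ± 0.11). Among genes induced by TGF-beta in other cells, Smad7, its feedback inhibitor, fell from 5.04 ± 0.228 to 1.76 ± 0.134 FPKM and Tgfbi, a secreted matrix protein, rose from 211 ± 11.7 to 544 ± 19.6 FPKM (1.44 ± 0.04).

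Hbegf encodes heparin-binding EGF-like growth factor, made as a membrane protein and shed by ADAM proteases. It was at 13.3, 14.0 and 14.1 FPKM in control and 4.88, 4.96 and 5.81 FPKM in treated libraries. The highest treated library was far below the lowest control (log2 fold change -1.33 ± 0.07, adjusted p 1.57e-09, edgeR). Other ligands of the EGF receptor were scarce. Areg had 0 counts in all libraries, and Ereg had 8, 6 and 31 counts in control and 0, 0 and 16 in treated libraries, too few to be tested under the filter. Of 15 other genes in the EGF family list 8 were tested, of which 1 rose, 1 fell and 6 did not pass. Egfr, the receptor, rose from 0.458 ± 0.134 to 0.934 ± 0.115 FPKM (1.03 ± 0.13), and Errfi1, a feedback inhibitor of the receptor, fell from 15.4 ± 0.298 to 8.87 ± 0.663 FPKM (-0.73 ± 0.05).

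The proteases that shed these ligands split too. Of 12 sheddase genes and regulators, 6 rose, 4 fell and 2 did not pass. Adam17, which sheds HB-EGF and also the M-CSF receptor, rose from 31.9 ± 0.0975 to 89.9 ± 2.12 FPKM (log2 fold change 1.57 ± 0.03, adjusted p 1.05e-14). Rhbdf2, which carries ADAM17 to the surface in myeloid cells, rose from 13.1 ± 0.567 to 17.7 ± 0.318 FPKM. Adam8, a leukocyte ADAM protease, fell from 742 ± 20.2 to 210.2 ± 12.3 FPKM (-1.74 ± 0.04). The ratio of Hbegf to Adam17 FPKM within a library was 0.432 ± 0.0142 in control and 0.0580 ± 0.00619 with SA@BATMAN5.

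**Figure D4:**
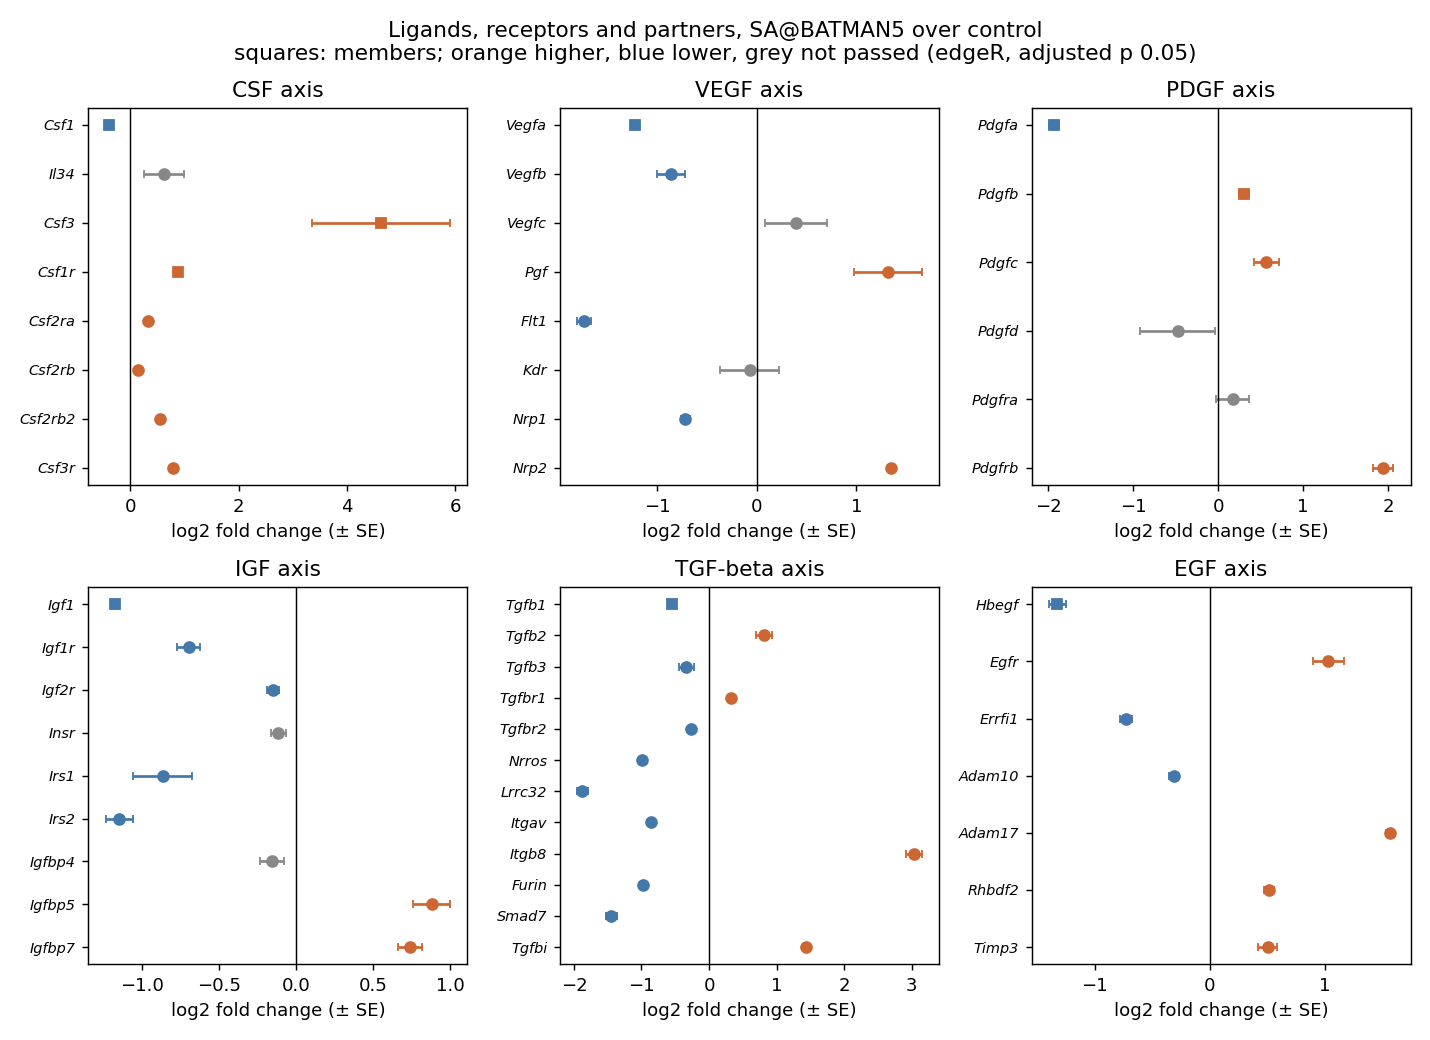
Log2 fold change ± SE (x axis, a different range in each panel) of chosen ligands, receptors and partners of 6 growth factor families. Members are squares, genes called higher are orange, called lower blue and not passed grey. The VEGF, IGF, TGF-beta and EGF panels leave out tested genes of their lists. Among those left out are Flt4, Itgb3 and the 6 EGF family genes that did not pass. Both ligand and receptor genes lie on each side of 0, with the ligand genes Pdgfa at -1.93 and Pdgfb at 0.30, and the receptor genes Flt1 at -1.74 and Pdgfrb at 1.94.

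Gdf15, a distant member of the TGF-beta superfamily that is induced by cell stress, was the least abundant member apart from Csf3. It stood at 5.58, 4.93 and 4.65 FPKM in control and 2.25, 1.90 and 2.00 FPKM in treated libraries, from 358 to 473 and 104 to 156 counts. The groups were separate (log2 fold change -1.22 ± 0.13, adjusted p 1.19e-06, edgeR). Of the 10 stress regulators tested with it, 6 rose, 3 fell and 1 did not pass. Atf3 fell from 358 ± 12.1 to 209.8 ± 8.28 FPKM (-0.69 ± 0.04) and Atf4, the main transcription factor of the integrated stress response, was at 65.3 ± 3.93 and 54.4 ± 1.89 FPKM (-0.19 ± 0.04, adjusted p 0.00231). Ddit3, the stress factor CHOP, rose from 13.5 ± 0.887 to 23.7 ± 1.68 FPKM (0.91 ± 0.08), and Cebpb, a transcription factor of inflammation, from 30.7 ± 4.91 to 81.3 ± 9.80 FPKM (1.48 ± 0.10). Gfral, its receptor in the hindbrain, had 0 counts in all libraries.

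The order of the members by FPKM changed between the groups. In control cells it ran Igf1, Csf1r, Tgfb1, Csf1, Vegfa, Pdgfa, Pdgfb, Hbegf, Gdf15 and Csf3, with the ranges of neighbours separate except for Csf1 and Vegfa. With SA@BATMAN5 it ran Csf1r, Igf1, Tgfb1, Csf1, Pdgfb, Vegfa, Pdgfa, Hbegf, Gdf15 and Csf3, with the ranges of neighbours separate except for Pdgfa and Hbegf. Csf1r and Igf1 thus exchanged places at the top, and Pdgfb passed Vegfa and Pdgfa.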

How the data were processed

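Per the file headers, the authors deposited a raw count and an FPKM value for each gene and library; the count values are whole numbers. GRCm39 and the tools StringTie 2.1.2, HISAT2 2.2.0 and DESeq2 1.26.0 appear in the submitters' processing notes; for the read counter, annotation and strand setting the sources used here give nothing. S-5 columns were taken as SA@BATMAN5 and N columns as control, which is a reading of the column names and is stated by no label. The authors' own comparisons were not used here.

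Counts were filtered with filterByExpr (minimum count 10, minimum total 15), given TMM factors, and compared between groups by the two-sided quasi-likelihood test of edgeR 4.0.16 (glmQLFit and glmQLFTest; R 4.3.3; no covariate). A Benjamini-Hochberg adjusted p under 0.05 was a call. SEs came from the fitted weights, and 95% intervals from the normal approximation. The transcript length implied by count and FPKM varied between libraries by up to 1.17-fold among the 9 members above the filter level in every library, so the scales can differ slightly. The chi-square per degree of freedom between libraries of 1 group was 4.56 to 7.80, above sampling noise, and no library was merged with another. The scripts were tested on simulated data.

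The members and lists were chosen with earlier results of these data known. The genes named were all members, fixed receptors, ligands and enzymes, and the 2 genes of each list with the smallest p; others are marked as chosen later, and a gene that the rule would name is not reported here. Other settings tried were scaling by DESeq2 size factors, by library totals alone or by the upper quartile; no filter or a filter at 1 CPM in 3 libraries; the DESeq2 1.42.0 Wald test, limma-voom (limma 3.58.1), limma on log2(FPKM + 1) and log2(FPKM + 0.1), a replicate block, and leaving out each library in turn. Thinning counts to the smallest library total was chosen after seeing the data. Figures were drawn with matplotlib 3.10.9.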

Additional observations from a re-analysis of the deposited data

How the results depend on the processing

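Each of the 7 members called lower, and Csf1r and Pdgfb, kept its direction and passed under every alternative. Csf3 also did so wherever it was tested. Under the filter on low counts Csf3 had to differ to be tested, so its calls there add no support. With the filter at 1 CPM in 3 libraries Csf3 was not tested, which left 2 members called higher. The log2 fold change of Pdgfb ranged from 0.22 to 0.36 (largest adjusted p 0.0170, limma on log2(FPKM + 1)), that of Csf1 from -0.48 to -0.33 and that of Pdgfa from -2.07 to -1.87. That of Csf3 ranged from 0.30 with a pseudocount of 1 FPKM, which shrinks low genes, to 7.13 without control replicate 2, a value set by the prior count. With each library left out in turn, 3677 to 3777 genes were called higher and 3627 to 3707 lower. Without control replicate 1 the log2 fold change of Pdgfra, which did not pass, turned from 0.17 to -0.011, and over the libraries left out in turn it ranged from -0.011 to 0.31. Il34 passed with limma on log2(FPKM + 1) and log2(FPKM + 0.1) (adjusted p 0.0459 and 0.0425). The Csf2rb call was lost there too (0.0808 and 0.0842). Upper-quartile scaling moved the median gene by -0.08. Same-numbered libraries did not deviate together (correlations -0.01 to 0.04), so the numbers were not taken as pairs. With the replicate block 3928 genes were called higher and 3818 lower, with all 10 members called, and not every library correlated best with its own number. Depth limits Csf3, Csf2, Ereg and Flt4, whose values rest on few counts.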

Other observations

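Growth factors outside the 10 genes were mixed as well. Of 26 other repair growth factor genes and receptors 22 were tested, of which 9 rose, 10 fell and 3 did not pass, and their log2 fold changes had a median of 0.00. Over all genes tested 29.5% were called higher and 28.7% lower, also around 0.00, so the table as a whole split as evenly. Jag1, a Notch ligand, rose from 3.72 ± 0.0779 to 17.2 ± 0.684 FPKM (log2 fold change 2.28 ± 0.04, edgeR adjusted p 8.55e-15), and Met, the receptor for hepatocyte growth factor, from 5.57 ± 0.176 to 25.3 ± 1.39 FPKM (2.26 ± 0.04). The ligand of Met, Hgf, fell from 6.87 ± 0.183 to 4.80 ± 0.0742 FPKM. Gas6, a bridging ligand of TAM receptors, fell from 20.4 ± 1.30 to 6.88 ± 0.300 FPKM. Fgf2, basic fibroblast growth factor, had 590, 472 and 667 counts in control and 16, 162 and 10 counts in treated libraries, so treated replicate 2 stood apart. Its log2 fold change was -2.70 ± 0.60 (adjusted p 0.00145) and -5.13 without that library, and it missed the threshold with DESeq2's Wald test (adjusted p 0.0534). Hgf, Gas6 and Fgf2 were chosen after their values were seen.

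Among 18 BMP, GDF and activin relatives 12 were tested, of which 4 rose, 1 fell and 7 did not pass. Inhba, which encodes the activin A subunit, rose from 3.70 ± 0.275 to 15.2 ± 1.66 FPKM (2.13 ± 0.08, adjusted p 1.21e-11), and Acvr1b, an activin receptor, from 6.61 ± 0.141 to 15.4 ± 0.307 FPKM (1.29 ± 0.04). Of 7 megakaryocyte and platelet markers 2 rose and 1 did not pass, with Gp5 at 0 counts, and the sum of 118 to 125 FPKM in control and 209 to 236 FPKM in treated libraries was nearly all Pf4. Of 7 lymphocyte markers 2 were tested and both rose, Klrb1c from 0.314 ± 0.0877 to 1.11 ± 0.231 FPKM and Cd79a (adjusted p 0.0498, edgeR), and the sum went from 0.276 to 0.639 FPKM in control to 1.05 to 2.08 FPKM in treated libraries. Of 6 dendritic cell markers 4 were tested, of which Ccr7 rose and 3 did not pass, with sums of 1.04 to 1.14 FPKM in control and 1.87 to 2.23 FPKM in treated libraries. Cd3e, Cd3d, Ncr1, Flt3 and Siglech had 0 counts in all 6 libraries. Mast cell and erythroid markers summed to at most 0.292 and 0.263 FPKM, and none could be tested.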
